A study of Mus musculus with 226 samples.

Results

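The neurons described here are 22 spiral ganglion neurons from Wildtype mice at postnatal day 26, 12 from the middle and 10 from the base of the cochlea, out of 93 cells with those labels. The series holds 93 further Wildtype cells of day 25, 26 or 27 from Apex, Middle or Base, of which cells from Middle and Apex of day 27 and from Apex of day 26 are compared below, and 40 cells without Vglut3, the vesicular glutamate transporter of inner hair cells, and the cells without Vglut3 were not used here. The 22 neurons were selected on the transcript of Lypd1, a membrane-anchored protein that modulates nicotinic receptors: a cell belongs when Lypd1 takes at least 300 CPM, its counts scaled to a fixed total over the genes of the cell. Lypd1 and the transcription factor Pou4f1 mark the Ic class of these neurons, and Lypd1 levels are given below as a description because they chose the cells. The mice carried bhlhb5::cre/+ and Ai14/+, so a Cre recombinase driven from Bhlhb5 switched on the red reporter tdTomato in the neurons, and single red neurons were picked by hand after dissociation. RNA was read by Smart-seq2, which copies full-length polyadenylated transcripts from 1 cell at a time. The cells were labelled by tonotopic location, the position along the cochlea that sets the sound frequency a neuron responds to. Neither an animal nor a preparation is named for any cell. Each location is therefore 1 pooled sample, and no test between locations can be made.

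Spiral ganglion neurons carry sound information from the inner hair cells to the cochlear nucleus. Type I neurons make up most of them and fall into the classes Ia, Ib and Ic, which differ in calcium-binding proteins and channels, and Ic neurons are usually matched to fibres with low spontaneous firing and high thresholds. High sound frequencies are sensed at the base and low ones at the apex, and ion channels and synaptic proteins are known to be graded between these ends.

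Lypd1 ran from 2397 through a median of 4413 to 5799 CPM in the Middle cells and from 667.5 through a median of 3328 to 4691 CPM in the Base cells. The lowest cell inside the limit was a Base cell at 667.5 CPM, and the highest cell outside it was a Base cell at 95.2 CPM. In the Middle the corresponding values were 2397 and 54.1 CPM, so no cell lay close to the limit. The members were 23.1% of the 52 Middle cells (exact Clopper-Pearson 95% interval 12.5 to 36.8%) and 24.4% of the 41 Base cells (12.4 to 40.3%). All intervals given here cover counting error only, and cells were picked by hand, so these are shares of picked cells.

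The other markers of the Ic class were present at both locations. Pou4f1, which the choice of cells did not use, ran from 267.9 through a median of 900.9 to 1901 CPM in Middle and from 331.6 through a median of 1095 to 1825 CPM in Base, with summed levels of 1063 and 1021 CPM. Grm8, a metabotropic glutamate receptor, had counts in 12 of 12 and 8 of 10 cells, with summed levels of 166.1 and 142.5 CPM. Runx1, a transcription factor, had counts in 12 of 12 and 9 of 10 cells (log2 fold 0.78). All 3 genes overlapped widely between the locations, and none met the size limits given below. Runx1 was at similar levels in the Calb2-intermediate cells of the same day described below, 180.9 CPM in Middle and 83.01 CPM in Base. It therefore does not set the members apart from those cells. Pou4f1 was at 116.9 and 118.1 CPM there, and Grm8 at 0. By Pou4f1 and Grm8 the label held for the group as a whole, while Lypd1 chose the cells and cannot bear on it. The Ib marker Calb1, described below, had counts in 6 of 10 Base cells. The Ia marker Calb2, the calcium buffer calretinin, was at most 1824 CPM in any member, against 12581 CPM in the Calb2-rich Middle cells of the same day. The Ia marker Rxrg, the Ib marker Trim54 and the type II markers Th and Prph had no counts in any member.

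Markers of other cell types were at or near 0. Of 10 markers of Schwann and satellite glia, 2 had a count in Middle and 6 in Base, with summed levels of 0 to 45.3 and 0 to 61.4 CPM per cell, and Cnp alone made up the highest sum at each location. The myelin gene Mbp was at 0 in every Middle cell and at or below 1.34 CPM in every Base cell. Summed markers of hair cells, macrophages, fibroblasts and endothelium reached at most 36.4 CPM in any member, and haemoglobin genes were at 0.

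The cells held 914065 to 3741006 counts on genes in Middle and 1754807 to 4743864 in Base, with 6763 to 8759 and 6952 to 9067 genes detected. Xist was found in 4 Middle and 5 Base cells, and Y-linked transcripts in the other 8 and 5, so each location held cells of both sexes and of at least 2 animals. Technical measures moved with location. The share of counts on the added spike-in RNA controls was 2.30 to 7.92% in Middle and 0.503 to 2.28% in Base, with medians of 3.57% and 0.85%, and the ranges did not overlap. The tdTomato reporter was also higher in Middle, at a median of 673.2 CPM against 223.04 CPM. The cell numbers in the labels ran from 15 to 201 in Middle. In Base they ran from 358 to 557, apart from 1 cell numbered 36, which had the highest Base spike-in share. Cell number was thus nearly divided by location too. Location and spike-in share cannot be told apart in these cells, which applies to every difference below.

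One Base cell, replicate 24, differed from the others in a set of genes. Its Lypd1 was 687.4 CPM and its Pou4f1 799.4 CPM, but Grm8 and Runx1 were at 0 and Prox1, a homeobox factor of spiral ganglion neurons, was at 0.336 CPM. Single traits of this kind were found in other Base members: Grm8 and Prox1 were at 0 in replicate 20, Runx1 was at 0.57 CPM in replicate 26, and Lypd1 was at 667.5 CPM in replicate 41. Replicate 24 had genes in common with 2 Base cells below the Lypd1 limit, which had 21.8 and 41.1 CPM of Lypd1 beside 1115 and 1264 CPM of Pou4f1. The correlation of log2(CPM + 1) with the mean of those 2 cells, over all genes of the table, was 0.846 for replicate 24 and 0.741 to 0.823 for the other 21 members. With the mean of the other members it was 0.862 for replicate 24, within the 0.820 to 0.901 of the other members. Every member had a higher value with that mean than with the mean of the 2 outside cells. The means cover 21 and 2 cells, so the 2 correlations of a cell cannot be ranked against each other. Of the 24491 genes in the table, 9 reached 50 CPM in all 3 of these cells and in no other Wildtype cell. They were searched for in these same cells, and how many genes any other 3 cells share in this way was not counted. Among the 9 were the potassium channel Kcnb2 at 350.2 CPM in replicate 24 and 324.0 and 219.04 CPM in the 2 others, and the receptor phosphatase Ptprq at 172.3, 106.2 and 60.5 CPM. Values that moved by over 1.5 times without this cell are given with and without it.

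**Figure D1:**
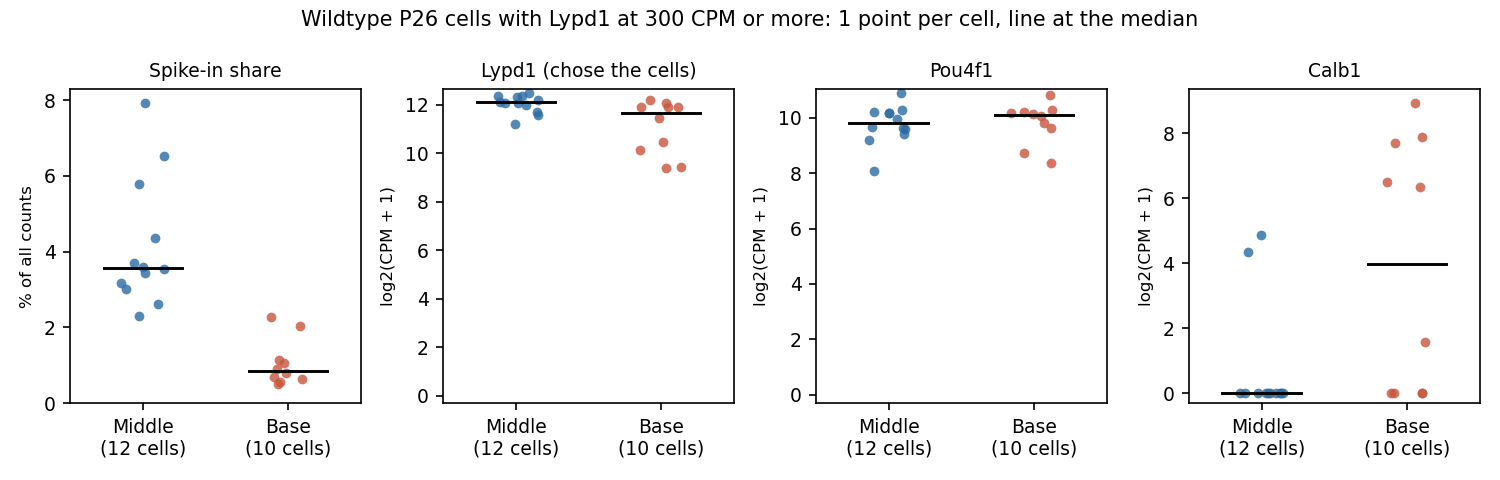
Spike-in share (percent of all counts) and log2(CPM + 1) of Lypd1, Pou4f1 and Calb1 in each of the 12 Middle and 10 Base cells; points are cells and lines are medians. The spike-in shares of the locations do not overlap, Pou4f1 overlaps widely, and Calb1 is above 0 in 2 Middle and 6 Base cells.

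Levels were compared as summed counts over summed gene totals, and a gene was called when it met fixed size limits: at least 20 CPM and a count in at least 50% of cells in the higher location, a log2 fold of Middle over Base of at least 1 in size with 1 CPM added to both, a difference of at least 1 between the means of log2(CPM + 1), and 0.5 or more on the same side when any cell is left out. Of 7061 genes above the minimum level, 968 met these limits (13.7%). 537 were higher in Middle (7.61%) and 431 were higher in Base (6.1%). The median log2 fold of all genes tested was -0.05. For no gene (0%) did all cells of one location lie above all cells of the other. The typical gene varied much within a location, with a median SD of log2(CPM + 1) of 1.88 over Middle cells and 2.06 over Base cells. Without Base replicate 24, 1012 genes met the limits and 855 of the 968 did so on the same side.

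By the difference of mean log2(CPM + 1), the gene with the largest shift towards Middle was Chst9, a sulfotransferase that adds sulfate to N-acetylgalactosamine on glycoproteins. Its cells ran from 0 through a median of 63.9 to 211.4 CPM in Middle and from 0 through a median of 0 to 16.8 CPM in Base, and 11 of 12 Middle cells lay above every Base cell. The summed level was 93.5 CPM (89.9 to 97.2) in Middle and 2.83 CPM (2.27 to 3.48) in Base, with exact Poisson 95% intervals in brackets here and below. The log2 fold was 4.63 (4.31 to 5.003 without each cell in turn). Counts were present in 11 of 12 and 4 of 10 cells. Chst9 had no count in the 68 Calb2-rich and Calb2-intermediate cells of the same day and locations described below, which allows a share of such cells of up to 4.41% and a level of up to 0.0166 CPM (3 counts).

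Atp11b, a flippase that moves phospholipids across membranes, was in every Middle cell, from 18.02 through a median of 83.5 to 167.6 CPM, and ran from 0 through a median of 2.97 to 62.1 CPM in Base, with 9 Middle cells above every Base cell. Its summed levels were 92.9 CPM (89.3 to 96.5) and 18.04 CPM (16.6 to 19.6) (log2 fold 2.30). Rab11fip2, an effector of the recycling endosome regulator Rab11, ran from 0 through a median of 43.3 to 105.9 CPM in Middle and from 0 through a median of 0 to 28.5 CPM in Base, with counts in 3 Base cells (log2 fold 3.52). Both genes belong to membrane traffic, and in both the Middle cells were mostly above the Base cells, with some overlap. Lims1, the integrin-linked adaptor PINCH1, was at 38.2 against 5.20 CPM (log2 fold 2.66), and Appbp2, which binds the amyloid precursor protein, at 85.97 against 21.7 CPM (log2 fold 1.94). Leaving out 1 cell moved some values by over 1.5 times: the log2 fold became 4.78 for Rab11fip2 without Base replicate 38 and 3.57 for Lims1 without Base replicate 10.

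Snapc2, a subunit of the complex that starts small nuclear RNA transcription, was in 12 Middle and 4 Base cells, at 64.3 and 11.9 CPM (log2 fold 2.34). The zinc finger genes Zkscan8 and Zfp711 had log2 folds of 4.32 and 2.52, with Zkscan8 found in 1 Base cell, replicate 41, and Zfp711 in 3. Over all cells Zkscan8 was at 52.96 CPM in Middle, with counts in 9 of 12 cells, and at 1.70 CPM in Base. Without replicate 41 no Base cell had a count of Zkscan8. Middle was then at least 500.4-fold higher in counted reads of these cells, with 3 counts as the Base floor. That bound holds only with the 1 Base cell that had counts left out. Stag2, a cohesin subunit, was at 65.4 and 26.1 CPM (log2 fold 1.29), and its Base cells reached 153.3 CPM. Xk, a membrane protein of the Kell blood group complex, was at 150.6 and 32.3 CPM (log2 fold 2.19), and the unannotated A830080D01Rik at 111.3 and 2.02 CPM (log2 fold 5.22). Xk, Zfp711 and Stag2 are on the X chromosome. Each of these 6 genes was absent from at least 5 of the 10 Base cells. Cplx2, a complexin of the release machinery, is described with the synaptic genes. Some of these values moved by over 1.5 times without 1 cell, with log2 folds of 2.86 for Xk without Base replicate 41, 6.72 for A830080D01Rik without Base replicate 1, 6.47 for Zfp711 without Base replicate 19 and 3.69 for Stag2 without Base replicate 19. Among these genes the call ended when 1 cell was left out, for 1 of the 22 cells in Stag2.

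On the Base side, Lyrm9, a small mitochondrial LYR-motif protein, was in all 10 Base cells, from 12.8 through a median of 72.8 to 177.1 CPM, and ran from 0 through a median of 7.51 to 36.4 CPM in Middle. 9 of 10 Base cells were above every Middle cell, and the summed levels were 12.99 CPM (11.7 to 14.4) in Middle and 92.6 CPM (89.3 to 96.1) in Base (log2 fold -2.74, -3.04 to -2.57 without each cell). Acadvl, which opens the mitochondrial oxidation of very long fatty acids, ran from 29.2 through a median of 116.01 to 223.4 CPM in Base and from 0 through a median of 11.3 to 79.3 CPM in Middle. 8 Base cells exceeded every Middle cell (log2 fold -2.25). For both genes few cells of the locations overlapped.

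Smpd4, a neutral sphingomyelinase, was at 66.4 CPM in Base and 6.22 in Middle (log2 fold -3.22). Sptssa, a small subunit of serine palmitoyltransferase, the first enzyme of sphingolipid synthesis, had counts in 9 of 10 Base and 4 of 12 Middle cells (log2 fold -2.19). Slc1a4, a transporter of serine and other neutral amino acids, ran from 14.4 through a median of 68.95 to 117.6 CPM in Base and from 0 through a median of 4.22 to 64.9 CPM in Middle (log2 fold -1.79). Slc7a6, a light chain of an amino acid exchanger, had a log2 fold of -1.28, and the choline-transporter-like gene Slc44a2 one of -2.76. The remaining leading Base genes were 2310022A10Rik, A430105I19Rik and AI987944, with log2 folds of -1.63, -3.48 and -1.50, and Calb1 and Rasgrf1. By over 1.5 times, single cells moved the log2 fold to -4.18 for Smpd4 without Middle replicate 30, -2.14 for Slc7a6 without Middle replicate 32, -3.41 for Slc44a2 without Middle replicate 41, -4.80 for A430105I19Rik without Middle replicate 9 and -2.93 for AI987944 without Middle replicate 38.

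**Figure D2:**
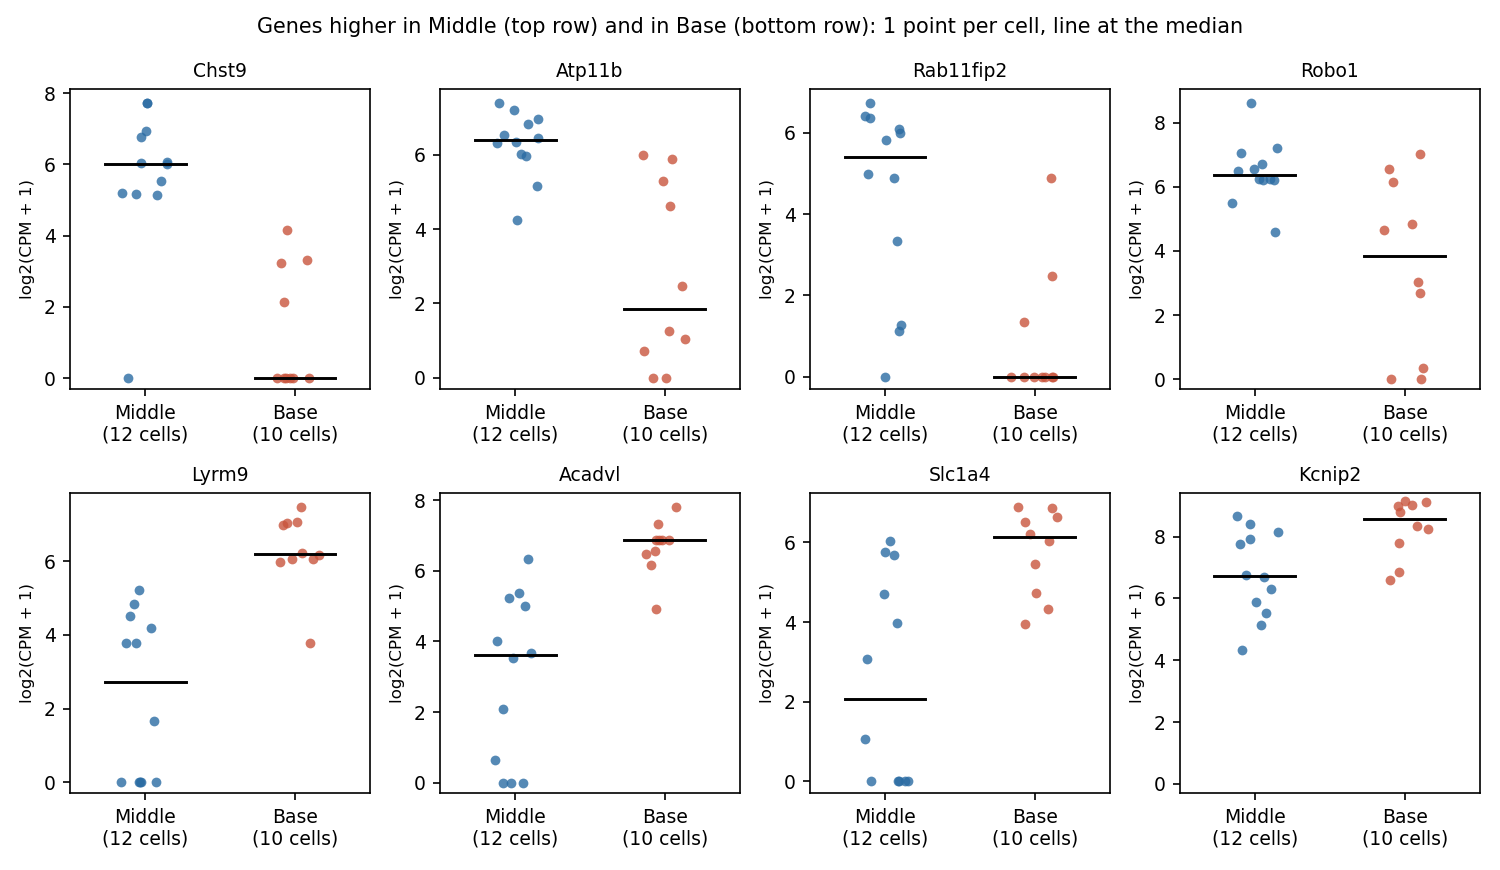
Log2(CPM + 1) of 4 genes higher in Middle (Chst9, Atp11b, Rab11fip2, Robo1) and 4 higher in Base (Lyrm9, Acadvl, Slc1a4, Kcnip2) in each cell; points are cells and lines are medians. Chst9 and Lyrm9 are nearly separate between the locations, while Robo1 and Kcnip2 overlap.

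Calb1, the calcium buffer calbindin and a marker of the Ib class, set a part of the Base cells apart. It ran from 0 through a median of 41.3 to 483.6 CPM in Base and from 0 through a median of 0 to 28.3 CPM in Middle, with counts in 6 of 10 cells (60%, 26.2 to 87.8%) against 2 of 12 (16.7%, 2.09 to 48.4%). The summed levels were 137.2 CPM (133.2 to 141.4) and 3.22 CPM (2.58 to 3.97), and the log2 fold was -5.03. The 3 Base cells with most Calb1 had 483.6, 234.3 and 207.2 CPM, and their Lypd1 was 1119.8, 667.5 and 1434 CPM, below every Middle cell. In the Calb2-intermediate cells of the same day, where Calb1 was common, it was at 287.1 CPM in Middle and 308.1 CPM in Base. Calb1 was the only one of 13 tested calcium buffers, sensors and pumps to meet the limits (7.69% beside 13.7% of all genes, list median 0.03). Pvalb, the buffer parvalbumin, was at 945.3 and 996.8 CPM. Without the 3 Calb1-rich cells, 1226 genes met the limits and 702 of the 968 did so on the same side. Leaving out 1 cell moved some values by over 1.5 times: the log2 fold became -4.17 for Calb1 without Base replicate 20 and -5.91 for Calb1 without Middle replicate 28.

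Of 49 potassium channel genes in the list, 22 were above the minimum level, 4 were higher in Middle and 4 in Base (36.4% called, beside 13.7% of all genes tested), and the median log2 fold was -0.17. Kcnip2, a cytoplasmic subunit of A-type Kv4 channels, ran from 96.7 through a median of 381.3 to 571.3 CPM in Base. In Middle it ran from 19.1 through a median of 104.5 to 402.1 CPM. 5 Base cells lay above every Middle cell, and the summed levels were 151.4 CPM (146.9 to 156.1) in Middle and 381.2 CPM (374.4 to 388.2) in Base (log2 fold -1.33, -1.61 to -1.16 without each cell). Its relative Kcnip3 was on the other side, at 23.2 and 8.89 CPM (log2 fold 1.29).

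Kcnt1, the sodium-activated potassium channel Slack, was at 21.4 CPM in Middle and 60.4 CPM in Base (log2 fold -1.45), and the Kv1 auxiliary subunit Kcnab1 at 40.6 and 89.02 CPM (log2 fold -1.11). Kcna6, a Kv1 pore subunit, was at 8.20 and 20.3 CPM (log2 fold -1.21), close to the minimum level. Kcnma1, the large-conductance calcium-activated channel, was in every cell and ran from 20.8 through a median of 62.02 to 340.2 CPM in Middle and from 9.63 through a median of 20.4 to 82.4 CPM in Base (log2 fold 1.23). Kcnj9, a subunit of G-protein-gated inward rectifiers, and Kcnh5, an ether-a-go-go channel, had log2 folds of 1.31 and 1.10, and without Base replicate 24 Kcnh5 was at 0.97. The main low-threshold Kv1 genes did not meet the limits and overlapped: Kcna1 was at 1266 and 881.1 CPM and Kcna2 at 572.1 and 365.8 CPM (log2 folds 0.52 and 0.64). The high-threshold Kcnc1 was at 192.1 CPM in both. Genes in this and the following paragraphs that did not meet the limits were named after their values were seen. Some of these values moved by over 1.5 times without 1 cell, with log2 folds of -2.21 for Kcna6 without Middle replicate 30, 2.53 for Kcnj9 without Base replicate 10 and 1.83 for Kcnh5 without Base replicate 10. Calls also rested on single cells, since leaving out 1 cell ended the call for 3 of the 22 cells in Kcnip3, 9 of the 22 cells in Kcnab1, 4 of the 22 cells in Kcna6, 2 of the 22 cells in Kcnj9 and 11 of the 22 cells in Kcnh5.

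The sodium channels Scn8a and Scn1a, which carry the action potential, were at 418.4 and 256.4 CPM and at 437.0 and 268.2 CPM in Middle and Base. Their log2 folds of 0.70 and 0.70 were short of the limit.

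Of 8 calcium channel genes tested, 2 were higher in Middle and 1 in Base (37.5% beside 13.7% of all genes, list median 0.43). All 3 are auxiliary subunits. The beta subunit Cacnb3 ran from 56.9 through a median of 255.4 to 550.4 CPM in Base and from 0 through a median of 87.7 to 347.0 CPM in Middle (log2 fold -1.07), while Cacnb2 was at 23.6 CPM in Middle and 10.4 CPM in Base (log2 fold 1.12). Cacng5, a gamma subunit that also accompanies AMPA receptors, was at 57.1 and 20.7 CPM (log2 fold 1.42). The pore subunit Cacna1a was at 47.9 and 42.3 CPM. By over 1.5 times, single cells moved the log2 fold to 2.26 for Cacng5 without Base replicate 3. Removal of 1 cell ended calls, for 4 of the 22 cells in Cacnb3 and 5 of the 22 cells in Cacnb2.

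The glutamate receptors that receive hair cell input did not meet the limits. Gria2, Gria3 and Gria4, the AMPA receptor subunits, had log2 folds of 0.08, 0.47 and 0.20. Only the kainate receptor subunit Grik4 met them among 11 tested genes (9.09% beside 13.7% of all genes, list median 0.01). It was at 28.8 CPM in Middle and 64.3 CPM in Base (log2 fold -1.13). None of 6 receptors for inhibitory and modulatory transmitters met the limits (list median -0.06), nor did any of 7 neurotrophic genes (list median -0.45). Both lists were thus at 0% beside the same 13.7%, with few genes tested. The neurotrophin receptors Ntrk2 and Ntrk3 were at 206.2 and 207.04 CPM and at 119.7 and 80.4 CPM. Among these genes the call ended when 1 cell was left out, for 2 of the 22 cells in Grik4.

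Of 33 genes of synaptic vesicles and release, 3 were higher in Middle and 2 in Base (15.2%, about the 13.7% of all genes, list median 0.06). Sv2c, a vesicle glycoprotein, was in every Middle cell, from 15.1 through a median of 50.3 to 134.99 CPM, and ran from 0 through a median of 21.4 to 170.4 CPM in Base (log2 fold 1.05). Rab3c, a vesicle-bound small GTPase, was at 106.4 and 45.6 CPM (log2 fold 1.20). The postsynaptic adhesion gene Nlgn3 was at 16.4 and 38.4 CPM (log2 fold -1.18). Base replicate 24 weighed on the other 2. Cplx2 was in every Middle cell, from 5.94 through a median of 107.7 to 264.8 CPM, and in 5 Base cells, of which replicate 24 had 371.4 CPM. Its summed Base level was 45.6 CPM (log2 fold 1.17) with that cell and 11.2 CPM in the other 9 Base cells (log2 fold 3.11). Vamp2, a vesicle SNARE, was at 24.5 CPM in Middle and 96.4 CPM in Base (log2 fold -1.93), but at 36.8 CPM in the other 9 Base cells (log2 fold -0.57), where it no longer met the limits. The vesicular glutamate transporters Slc17a6 and Slc17a7 were at 744.1 and 439.7 CPM and at 70.2 and 42.8 CPM (log2 folds 0.76 and 0.70) and did not meet the limits. Leaving out 1 cell moved some values by over 1.5 times: the log2 fold became 3.11 for Cplx2 without Base replicate 24 and -0.57 for Vamp2 without Base replicate 24. Calls also rested on single cells, since leaving out 1 cell ended the call for 3 of the 22 cells in Cplx2, 7 of the 22 cells in Vamp2, 7 of the 22 cells in Sv2c, 6 of the 22 cells in Rab3c and 1 of the 22 cells in Nlgn3.

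Of 23 axon guidance genes tested, 4 receptors were higher in Middle (7.61% of all genes were) and 1 ligand in Base (6.1% of all genes), and the list median was 0.31 beside -0.05 for all genes. The Slit receptor Robo1 ran from 22.9 through a median of 81.8 to 391.5 CPM in Middle and from 0 through a median of 15.6 to 127.9 CPM in Base (log2 fold 1.64). The ephrin receptor Epha4 was at 141.4 and 65.8 CPM (log2 fold 1.09). The semaphorin co-receptors Nrp1 and Nrp2 had log2 folds of 1.09 and 1.02, and of 0.95 and 0.88 without Base replicate 24, below the limit. The ligand Efna1 was on the Base side, at 23.1 against 2.27 CPM (log2 fold -2.88), in 5 Base and 3 Middle cells. Some of these values moved by over 1.5 times without 1 cell, with log2 folds of 1.81 for Epha4 without Base replicate 41 and 1.93 for Nrp2 without Base replicate 19. Removal of 1 cell ended calls, for 4 of the 22 cells in Epha4, 3 of the 22 cells in Nrp1, 14 of the 22 cells in Nrp2 and 5 of the 22 cells in Efna1.

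Cell adhesion genes mostly did not differ by the limits, with 1 higher in Middle and 1 in Base of 31 tested (6.45% beside 13.7% of all genes, list median 0.17). Opcml, a GPI-anchored adhesion protein of the IgLON family, had counts in 6 of 12 Middle cells (50%, 21.1 to 78.9%) and in none of 10 Base cells (up to 30.8%). Its Middle cells ran from 0 through a median of 8.28 to 282.0 CPM, so cells at 0 were found at both locations. The summed level was 73.4 CPM (70.2 to 76.7) in Middle, and 3 counts over all Base cells would be 0.0963 CPM, which makes Middle at least 762.3-fold higher in counted reads of these cells (at least 418.7-fold without Middle replicate 38). Pcdh9, a protocadherin, ran from 0 through a median of 13.4 to 658.1 CPM in Base and from 0 through a median of 0 to 42.6 CPM in Middle, with counts in 6 and 3 cells. Its summed levels were 7.47 CPM in Middle and 79.4 CPM in Base (log2 fold -3.25), and 18.3 CPM in the other 9 Base cells (log2 fold -1.19), where it missed the limits. By over 1.5 times, single cells moved the log2 fold to -1.19 for Pcdh9 without Base replicate 24 and -4.62 for Pcdh9 without Middle replicate 32. Among these genes the call ended when 1 cell was left out, for 6 of the 22 cells in Opcml and 1 of the 22 cells in Pcdh9.

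Rasgrf1, a calcium-regulated exchange factor that activates Ras, was found in some Base cells and not in others. It had counts in 5 of 10 Base cells, which reached 376.8 CPM, and in 2 of 12 Middle cells, which reached 39.95 CPM. The summed levels were 3.44 CPM (2.78 to 4.21) in Middle and 103.9 CPM (100.3 to 107.5) in Base (log2 fold -4.56). Without replicate 24 it was at 98.7 CPM in the other 9 Base cells (log2 fold -4.49) and in 4 of 9 cells, under the limit on the share of cells. All 5 Base cells with a count lay above every Middle cell. Leaving out 1 cell moved some values by over 1.5 times: the log2 fold became -5.91 for Rasgrf1 without Middle replicate 33. Calls also rested on single cells, since leaving out 1 cell ended the call for 5 of the 22 cells in Rasgrf1.

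The windows from 250 bases before to 50 bases after the annotated start of Opcml and Rasgrf1 are shown as examples of a gene found in part of the Middle cells and of one found in part of the Base cells. They come from RefSeq on build GRCm38.p6, the assembly of mm10, 5′ to 3′ on the plus strand, and the capitals mark the E-box CATATG, a palindrome that basic helix-loop-helix factors of the Bhlhb5 kind can bind. The Opcml window is chr9:27791049-27791348 and the Rasgrf1 window chr9:89909525-89909824.
Opcml: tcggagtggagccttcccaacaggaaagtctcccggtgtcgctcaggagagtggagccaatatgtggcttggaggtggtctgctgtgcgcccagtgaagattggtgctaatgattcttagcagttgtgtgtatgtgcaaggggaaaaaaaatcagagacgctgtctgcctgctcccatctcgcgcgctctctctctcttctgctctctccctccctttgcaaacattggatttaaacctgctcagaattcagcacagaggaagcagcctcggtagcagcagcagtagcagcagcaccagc
Rasgrf1: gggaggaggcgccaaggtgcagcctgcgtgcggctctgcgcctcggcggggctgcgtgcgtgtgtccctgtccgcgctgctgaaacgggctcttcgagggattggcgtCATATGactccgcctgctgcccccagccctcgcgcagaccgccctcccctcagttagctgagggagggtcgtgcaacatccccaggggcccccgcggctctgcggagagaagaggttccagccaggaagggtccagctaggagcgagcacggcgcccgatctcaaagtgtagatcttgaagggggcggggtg
The Rasgrf1 window held 1 CATATG and the Opcml window 0, beside 3.91% of all 32851 windows of this length. The homeodomain core TAATTA, also a palindrome, was in neither, beside 5.29% of all windows. The windows differed in base content, with 9 CG pairs and 53.7% G and C in Opcml and 26 CG pairs and 68.3% in Rasgrf1, beside medians of 7 CG pairs and 52.7% over all windows. These are letters in a window and say nothing of which factors are bound.

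Of 26 tested transcription factors of sensory neurons, 1 was higher in Middle, none in Base (3.85% beside 13.7% of all genes, list median 0.34). That gene was Onecut2, at 38.7 and 17.05 CPM (log2 fold 1.14). Prox1, Gata3 and Ebf1 had log2 folds of 0.35, 0.53 and -0.57, short of the limit. Among 13 immediate early genes, which respond to activity and to stress, 2 were higher in Middle and 1 in Base. That was 23.1% beside 13.7% of all genes (list median 0.15). Klf6 ran from 0 through a median of 121.1 to 328.6 CPM in Middle and from 0 through a median of 17.6 to 99.5 CPM in Base (log2 fold 1.86), and Egr2 was at 52.8 and 15.5 CPM (log2 fold 1.70). Nr4a1 was higher in Base, at 39.4 against 10.03 CPM, in 5 of 10 and 2 of 12 cells. Fos had summed levels of 956.1 CPM in Middle and 1063 CPM in Base, with counts in 11 of 12 and 8 of 10 cells. Its medians were 919.8 and 477.0 CPM, and its Base cells ran from 0 to 2697 CPM. Jun was at 531.6 and 440.2 CPM. Some of these values moved by over 1.5 times without 1 cell, with log2 folds of 2.46 for Egr2 without Base replicate 19, 2.43 for Egr2 without Base replicate 24, -0.90 for Nr4a1 without Base replicate 10, -2.58 for Nr4a1 without Middle replicate 38 and -2.63 for Nr4a1 without Middle replicate 46. Removal of 1 cell ended calls, for 5 of the 22 cells in Onecut2 and 5 of the 22 cells in Nr4a1.

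Stress genes gave 1 call in 12 (8.33% beside 13.7% of all genes, list median 0.01). It was the glutathione-degrading enzyme Chac1, higher in Base at 32.9 against 9.55 CPM (log2 fold -1.69). The chaperone Hspa8 was at 253.6 and 467.1 CPM (log2 fold -0.88). Of 4 interferon response genes Ifi27 met the limits (25% beside the same 13.7%, list median -0.48), at 41.8 and 109.96 CPM (log2 fold -1.37). No member of 4 further lists met the limits (0% in each, beside 13.7% of all genes). They were 70 nuclear genes of oxidative phosphorylation (median -0.06) and 7 mitochondrially encoded genes (0.21). The others were 22 genes of neurofilaments, microtubules and axon growth (-0.06) and 12 genes of retinoid, BMP, Wnt and FGF signalling (-0.05). The neurofilament genes Nefl, Nefm and Nefh had log2 folds of -0.05, 0.49 and 0.62. By over 1.5 times, single cells moved the log2 fold to -1.08 for Chac1 without Base replicate 10 and -2.77 for Chac1 without Middle replicate 23. Among these genes the call ended when 1 cell was left out, for 3 of the 22 cells in Ifi27.

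**Figure D3:**
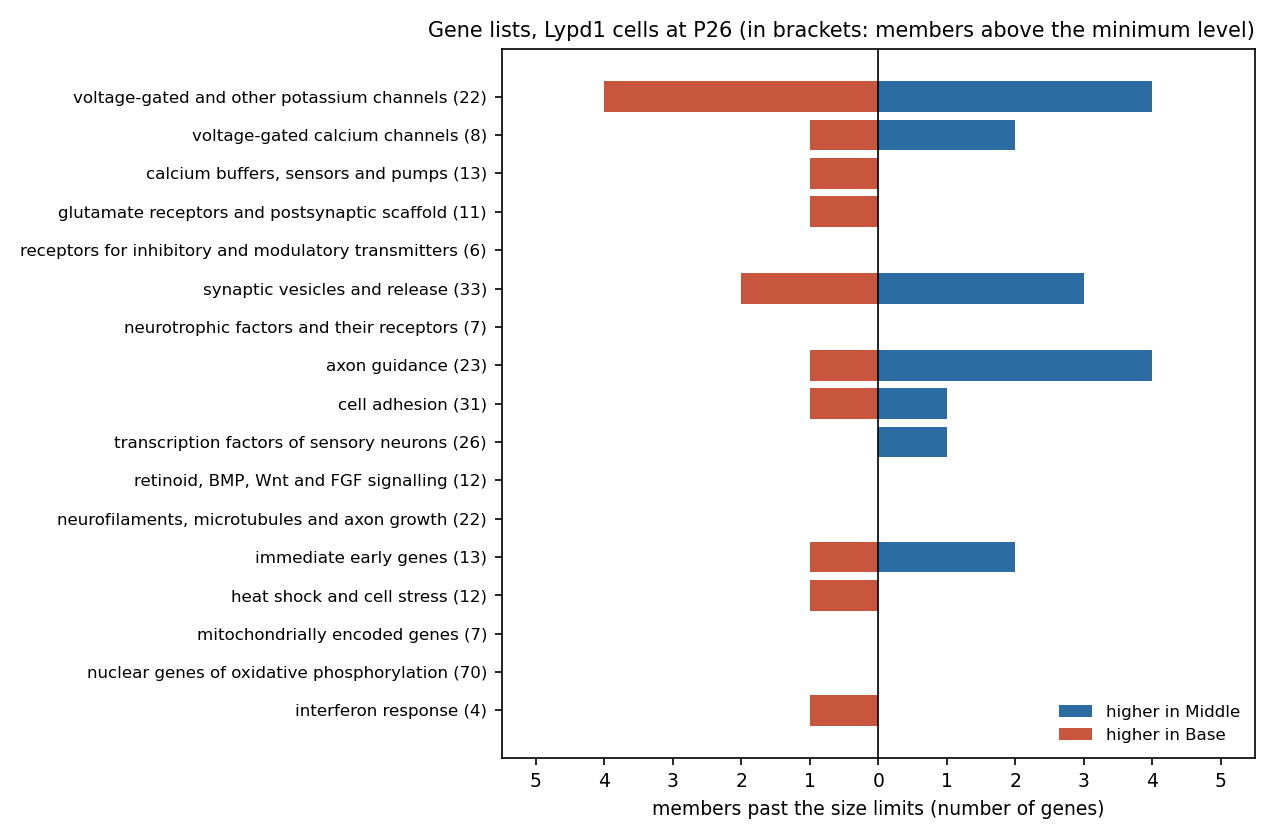
Number of members past the size limits in each of the gene lists shown, higher in Middle to the right and higher in Base to the left; the number of members above the minimum level is in brackets. Potassium channels have 4 on each side, axon guidance has 4 in Middle and 1 in Base, and 6 of the lists shown have none. Of all genes tested, 13.7% met the limits.

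Whether the differences were particular to Lypd1-rich cells was looked at in the other Wildtype cells of day 26, those with less than 300 CPM of Lypd1. They were taken in 2 bands of Calb2, the marker that runs from high in Ia to low in Ic neurons: at least 5000 CPM (24 Middle and 18 Base cells) and 500 to 5000 CPM (16 and 10 cells). In the Calb2-rich band 413 genes met the limits between locations (5.95%), and in the Calb2-intermediate band 767 (11%). Of the 968 genes of the Lypd1 cells, 70 were called on the same side in the Calb2-rich band (7.23% of the Lypd1 list and 16.9% of the Calb2-rich list) and 9 on the other side. In the Calb2-intermediate band 110 were on the same side (11.4% and 14.3%) and 37 on the other. The shares of genes called again, on either side, were 8.16% beside the background of 5.95% in the first band and 15.2% beside 11% in the second, a small excess. The spike-in share moved with location in these bands too, at medians of 2.86% and 0.76% and of 3.49% and 0.795%, and its part in the shared differences was not tested.

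Of the 7061 genes tested in the Lypd1 cells, 25 met the limits on the same side in all 3 sets of cells. 13 were higher in Middle and 12 higher in Base. Each set alone had 13.7%, 5.95% and 11% of its genes past the limits, and the number these shares would give together was not worked out. Opcml was one of the 25: it was at 115.3 CPM in Middle and 16.8 CPM in Base in the Calb2-rich band, and at 81.4 and 16.6 CPM in the Calb2-intermediate band. Sv2c was at 76.2 and 23.1 CPM and at 86.2 and 32.01 CPM. Both were thus lower in Base in each class of cell. The zinc finger gene Zkscan1 had log2 folds of 2.001, 2.396 and 1.94 in the Lypd1, Calb2-rich and Calb2-intermediate cells, and the kinase gene Cdc42bpa of 1.35, 1.09 and 1.17. The others higher in Middle were Cebpz, Dhx9, Gm14403, Kcnh5, Osbpl3, Polr3b, Tab3, Zfp37, Zfp869.

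Of the 12 genes higher in Base in all 3 sets, the noncoding RNA Snhg11 was at 5918 CPM in Middle and 12864 CPM in Base in the Lypd1 cells, and its log2 folds were -1.12, -1.10 and -1.04 in the 3 sets. Timp2, an inhibitor of matrix metalloproteinases, had log2 folds of -1.89, -3.14 and -1.69. H2-D1, a class I histocompatibility gene, was at 33.5 CPM in Base against 6.08 CPM in Middle in the Lypd1 cells, with the same direction in both bands (-1.22 and -2.28). The others were Arl14ep, Pea15a, Phactr1, Pik3ip1, Pkd1, Rbm45, Tmem263, Traf3ip1, Usp37. The genes of this group were named after their values were seen.

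Most leading genes of the Lypd1 cells were not called in the bands. Lyrm9 was at 25.98 and 19.5 CPM in Calb2-rich Middle and Base cells and at 12.2 and 13.8 CPM in Calb2-intermediate ones. Acadvl was at 109.8 and 133.8 CPM and at 59.3 and 106.9 CPM. Their log2 folds in the bands lay between -0.84 and 0.40, smaller than in the Lypd1 cells, and the difference between classes was not tested. In the Calb2-rich band Kcnip2 was higher in Base, at 72.8 against 4.46 CPM, and at 205.7 against 116.8 CPM in the other band. Nrp1 went the other way: it was higher in Base in both bands, 71.7 against 31.1 CPM and 57.2 against 19.9 CPM, and higher in Middle in the Lypd1 cells. Rasgrf1 had no count in the 24 and 16 Middle cells of the bands and was found in 2 of 18 and 4 of 10 Base cells, too few for the limit on the share of cells.

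**Figure D4:**
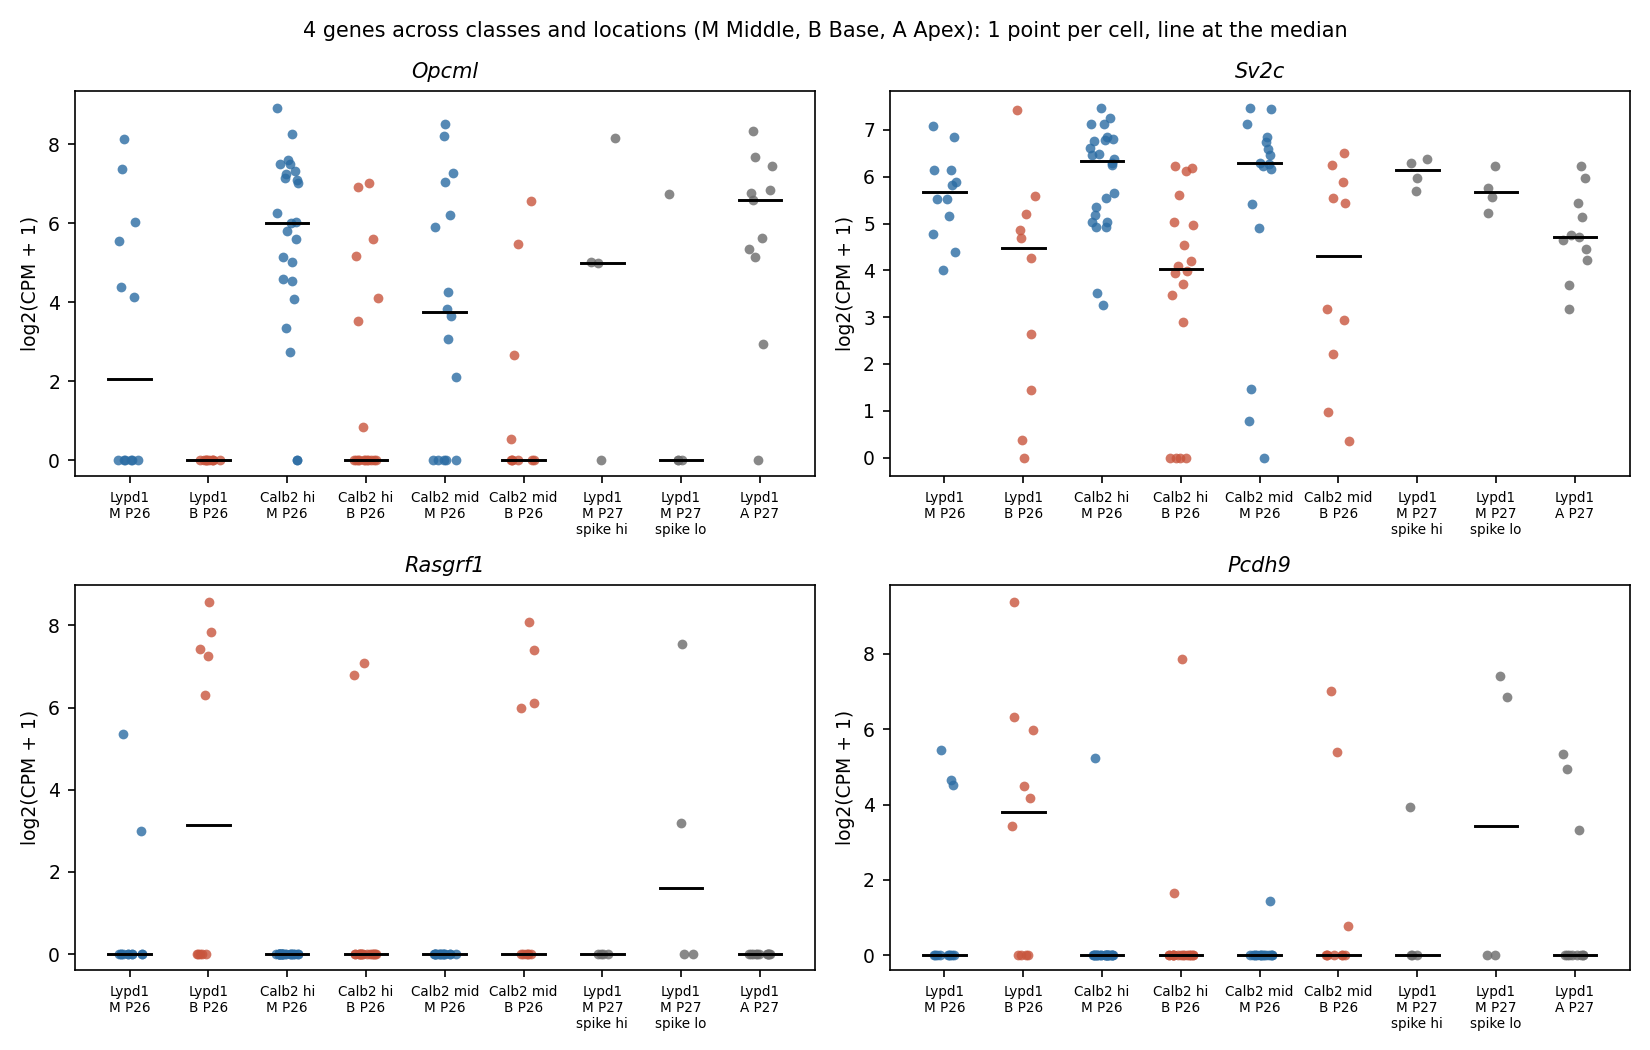
Log2(CPM + 1) of Opcml, Sv2c, Rasgrf1 and Pcdh9 per cell in the Lypd1-rich, Calb2-rich (hi) and Calb2-intermediate (mid) cells of Middle (M) and Base (B) at day 26, and in Lypd1-rich cells of day 27 from Middle, split by spike-in share (hi is 2% or more, lo is less), and Apex (A). Points are cells and lines are medians; Opcml is at 0 in all 10 Lypd1-rich Base cells, and Rasgrf1 has a count in 2 of 12 Lypd1-rich Middle cells and in none of the Calb2-rich or Calb2-intermediate Middle cells.

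Lypd1-rich Wildtype cells of other groups gave a second view of the same genes. At day 27 there were 8 from Middle and 11 from Apex, all with Xist, and at day 26 there were 2 from Apex; the only Lypd1-rich Wildtype cell of day 25 was from Middle and entered only an alternative comparison. The Middle cells of day 27 fell into 4 with a spike-in share of 5.45 to 10.1% and 4 with 0.561 to 1.10%, the second range like that of the Base cells. Between these 4 and 4 cells of one location, 1760 genes met the limits (24.1%), more than between the locations at day 26, in groups of fewer cells. Of the 968 genes of the Lypd1 cells, 15.6% were among them with the high-share cells on the Middle side and 8.37% the other way round, together 23.97% of the list, about the background of that comparison.

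Single genes differed in how they followed this split. Chst9 was at 66.3 CPM in the high-share and 41.9 CPM in the low-share Middle cells, and at 44.4 CPM in the Apex cells, all above the 2.83 CPM of Base. Kcnip2 was at 103.00, 116.1 and 45.7 CPM in the same order, all below the 381.2 CPM of Base. By summed level both genes were thus on the same side of Base in the high-share and the low-share cells. Counts of Chst9 lay in 4 of 4 high-share cells but in 2 of 4 low-share cells, at 145.3 and 17.97 CPM. Base cells reached 16.8 CPM. Opcml was at 99.98 CPM in 3 of 4 high-share cells and at 30.6 CPM in 1 of 4 low-share cells, and at 112.8 CPM in 10 of 11 Apex cells.

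The summed levels of other genes followed the spike-in share within Middle in the direction of the Base cells, some of them through 1 or 2 cells. Rasgrf1 was listed at 0 in the high-share cells and in the Apex cells. It was at 48.9 CPM in the low-share cells, of which 2 of 4 had counts, at 187.5 and 8.16 CPM. Pcdh9 was at 2.20 and 68.4 CPM, Calb1 at 0.367 and 25.5 CPM, and Acadvl at 25.9 and 126.95 CPM in high-share and low-share cells. Pcdh9 and Calb1 each had counts in 1 of 4 high-share and 2 of 4 low-share cells, and Acadvl in 3 and 4. The 2 low-share cells with Calb1 had 126.7 and 13.2 CPM. In the low-share cells Acadvl was thus near the 107.00 CPM of Base. Zfp711 and Klf6 ran against the pattern of day 26, at 9.26 and 110.1 CPM and at 14.1 and 103.4 CPM. Set against the Base cells, Xk, Cplx2 and Kcnab1 lay on the other side than at day 26 in both sets of day 27 Middle cells, with log2 folds of -0.30, -0.37 and 0.19 for the high-share and -0.21, -1.47 and 1.25 for the low-share cells. Within the Base cells the split was possible for only 2 against 8: Chst9 was at 10.3 CPM in the 2 cells with a share of 2% or more and 1.85 CPM in the other 8, Opcml at 0 in both, and Sv2c at 88.2 and 18.6 CPM. What part the spike-in share had in any of these values was not tested. Among the 4 Middle and 5 Base cells with Xist AI987944 had a log2 fold of 0.59, and among the 8 and 5 cells without it Kcna6 and Onecut2 had 0.15 and -0.11, against their direction over all 22 cells. Whether sex had a part in this was not tested.

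Whether counting used the strand of the reads is not given in the sources used here. Exons of Appbp2, Stag2, Acadvl, Kcnj9, Kcnma1, Kcna6, Kcnab1, Cacnb2, Trim54, Lypd1, Runx1, Gata3, Nefl, Nefm, Cnp, Cacna1a, Prox1 and Jun lie over exons of a gene read from the opposite strand, and the values of these genes may therefore mix reads of both. On build GRCm38, in the GENCODE M21 annotation, Lyrm9 spans chr11:78826584-78846870 (plus strand), Acadvl spans chr11:70010183-70015411 (minus strand), Kcnip2 spans chr19:45791839-45816061 (minus strand), Opcml spans chr9:27790775-28925410 (plus strand) and Rasgrf1 chr9:89909908-90026977 (plus strand). A830080D01Rik and A430105I19Rik were not matched to the annotation.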

How the data were processed

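Single-neuron RNA was measured by Smart-seq2 in 226 cells, per the labels. The authors deposited raw counts on genes, which are whole numbers, with spike-in and TdTomato rows; their normalized table was not used. The submitters' processing notes name STAR 2.4.0, Trimmomatic 0.33, Seurat 1.4.0.12, edgeR 3.14.0 and Subread 1.4.6, and the build mm10, with no order. How multimapping reads and strand were handled, and which annotation was used, is not given.

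From the deposited counts, CPM were computed over gene rows, without the 92 spike-in rows and the reporter. Wildtype day 26 cells with at least 300 CPM of Lypd1 were grouped by labelled location. Members and lists were chosen with earlier results of these data known. No animal is named, so cells were summed and no p-value is given; intervals are exact Poisson and Clopper-Pearson at 95%, for counting error only, and reads carry no molecular identifiers. Named were the 12 genes per side with the largest difference of mean log2(CPM + 1) among those past the limits, then list members past them (at most 4 per list and side) and class markers. Xist, Tsix and Y-linked genes were kept apart, and results on some genes are not reported here. Of 24491 genes, 23538 matched GENCODE M21 (GRCm38) by symbol. The 22 cells were distinct: the most alike pair had a correlation of 0.823. Cells were picked by hand and no doublet caller was run. The comparison was tested on simulated data. Alternatives covered the cells, scaling (edgeR 4.0.16 TMM, DESeq2 1.42.0 size factors), pseudocount, minimum level, thinning and leaving out each cell. Python 3.11.15, numpy 2.4.6, pandas 2.3.3, scipy 1.17.1, matplotlib 3.10.9 and R 4.3.3 were used.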

Additional observations from a re-analysis of the deposited data

Results flagged for a closer look

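In the 10 Base cells, 15 of 92 named genes tested had one cell far from the others by Dixon's criterion at 95%, which chance meets in about 1 of 20 groups, so about 5 would be met by chance. Values in brackets are log2(CPM + 1) of that cell. The highest cell stood apart for A830080D01Rik (5.09), Zfp711 (7.34), Rab11fip2 (4.88), Zkscan8 (4.31), Stag2 (7.27), Snap25 (14.2), Nefl (12.3), Nefm (11.4) and Pvalb (10.8). The lowest cell stood apart for Lyrm9 (3.79), Smpd4 (0), Sptssa (0), Grik4 (0.882), Nefh (7.32) and Epha5 (0). A830080D01Rik, Zfp711, Rab11fip2 and Zkscan8 had counts in at most 3 of the 10 Base cells, so 1 cell with a count stands apart easily there. Depth, genes detected, spike-in share and tdTomato did not stand apart in any Base cell by this criterion. The 12 Middle cells were not tested by it, so cells far from the others were looked for in Base only.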

How the results depend on the processing

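Genes past the size limits numbered 968, 537 higher in Middle and 431 higher in Base, of which 32 were list members. The number of these genes kept on their side is given as kept. Leaving out each cell in turn gave 930.0 to 1033.0, and 753.0 to 899.0 were kept. The share of calls on the Middle side stands in brackets. A pseudocount of 10 CPM gave 388 (59.8%, 388 kept), no minimum level or share 1556 (54.3%, 968 kept), cells with Xist only 1518 (51.2%, 499 kept), cells without Xist only 1518 (57.6%, 597 kept), and, chosen after seeing the data, high-share day 27 Middle cells 1453 (46.3%, 383 kept) and the 2 Base cells with a spike-in share of 2% or more 1559 (56.3%, 387 kept). List members past the limits became 13, 52 and 60 with 10 CPM, without Xist and with the 2 Base cells. With 10 CPM, 41 genes were shared with the Calb2-rich and 57 with the Calb2-intermediate band. The other alternatives moved the counts called by less than 1.5 times, but only 270 genes were kept with low-share day 27 Middle cells. With cells chosen by Pou4f1 and by low Calb2, 587 were kept, and 702 to 968 in the rest. TMM and median-ratio scaling gave 60.2% and 60.5% of calls on the Middle side, beside 55.5%.

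Among the named genes past the limits, these changed direction, with the log2 fold in brackets. With Xist only, it was AI987944 (0.59); without Xist, Kcna6 (0.15) and Onecut2 (-0.11). With low-share day 27 Middle cells in place of the day 26 ones they were Xk (-0.21), Cplx2 (-1.47), Acadvl (0.24), Kcnj9 (-2.05) and Kcnab1 (1.25), and with high-share ones Xk (-0.30), Cplx2 (-0.37), Zfp711 (-1.30), AI987944 (1.32), Kcnab1 (0.19), Nlgn3 (0.45), Nrp2 (-1.05), Klf6 (-1.28) and Egr2 (-1.43). Against the 2 Base cells with a share of 2% or more they were Kcnh5 (-0.90), Cacng5 (-0.13), Sv2c (-0.64), Onecut2 (-0.55), Nr4a1 (3.46) and Chac1 (3.40). With cells chosen by Pou4f1 (12 Middle and 13 Base cells), it was Kcnip3 (-0.25). The cause was not tested. The comparison within a shared range of spike-in shares was not run, because the locations shared none. No paired analysis was possible because the replicate numbers only name cells in accession order.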

Other observations

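The 2 Base cells below the Lypd1 limit that shared genes with Base replicate 24 had further values in common with it. The annexin Anxa2 was at 334.1, 496.2 and 649.0 CPM in the 3 cells, with replicate 24 first, and reached 50 CPM in 2 of the other Wildtype cells. The protocadherin Pcdh17 was at 480.8, 614.2 and 350.8 CPM, with 1 other cell at that level, and Pcdh9 at 658.1, 1608 and 1664 CPM, with 8. Syt1, a vesicle calcium sensor, was at 233.2, 452.4 and 431.5 CPM, with 5. Gata3, a transcription factor found at 50 CPM or more in nearly all other Wildtype cells, was at 2.27 and 0 CPM in the 2 outside cells but at 293.0 CPM in replicate 24. Prox1 was at or below 1.89 CPM in all 3. No class is named for them here.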
